A study of Macaca fascicularis with 21 samples.

Results

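The genes described here are the nuclear genes of oxidative phosphorylation, which encode subunits of the mitochondrial respiratory chain and of ATP synthase, measured cell by cell in cultured embryos of the cynomolgus monkey (Macaca fascicularis). They were chosen by gene name alone (NDUFA, NDUFB, NDUFC, NDUFS and NDUFV with a number, SDHA to SDHD, UQCR, COX4 to COX8 and ATP5), which found 50 of the 30792 genes of the count table. By respiratory complex, these were 30 genes of complex I, 2 of complex II (SDHC and SDHD), 0 of complex III, 2 of complex IV (NDUFA4 and NDUFA4L2) and 16 under the ATP synthase prefix. ATP5SL carries that prefix and is known as a complex I assembly factor, not a subunit of ATP synthase. Another 33 subunit genes were stored in the table under numbered identifiers and were matched to their symbols by gene ID. They were 6 genes of complex I, 2 of complex II, 8 of complex III and 17 of complex IV, and they are called the further subunits. Gene symbols are those of the table, which uses older names for ATP synthase (ATP5A1 and ATP5B are the alpha and beta subunits, ATP5G1 to ATP5G3 the c subunit).

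Oxidative phosphorylation moves electrons from NADH through complex I, or from succinate through complex II, to ubiquinone, then through complex III and cytochrome c to oxygen at complex IV. The proton gradient built on the way drives ATP synthase, complex V. Most subunits come from nuclear genes that are read in nearly all cells, while a few complex IV subunits have paralogs with restricted expression, such as COX4I2, known from lung and from low oxygen, COX7A1, known from heart and muscle, and COX8C and COX7B2, known from testis. Early primate embryos implant at low oxygen, and use of the respiratory chain relative to glycolysis is known to change between the naive and primed states of pluripotent cells.

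The study cultured blastocysts without their zona pellucida singly on Matrigel, removed extra-embryonic tissue under a microscope, and picked single cells by hand for sequencing of transcript 3' ends. The 21 embryos carried labels of day 11 (2 embryos), 12 (5), 13 (3), 14 (4), 16 (4) and 17 (3). The day is worded as a culture stage for 5 embryos, which are replicate 1 of day 12 and replicates 1 and 2 of each of days 13 and 17. It is worded as a developmental stage for the other 16, and the sources used here do not say whether the 2 wordings start on the same day. The authors gave 12 cell annotations, which were joined here into 7 families. EPI holds both epiblast annotations (postE-EPI and postL-EPI), Gast the gastrulating cells (E-Gast with L-Gast1 and L-Gast2), and AM the amnion (E-AM with L-AM1 and L-AM2). Among embryos with at least 3 cells of an annotation, postE-EPI, E-Gast and E-AM occurred up to day 14 only. The late annotations of these families occurred at day 16 or later only. Within EPI, Gast and AM, day and annotation therefore cannot be told apart. PGC, the germ cell precursors, holds E-PGC alone, VE/YE is the endoderm outside the embryo proper, EXMC the extraembryonic mesenchyme and TE the trophoblast. All embryos shared the culture system, and the labels name no treatment or edit. Counts were summed over the cells of a family in an embryo (at least 5 cells, or 3 for PGC), and levels are given in CPM, counts scaled to a common library size. Because reads come from transcript ends, levels were compared between samples and not between genes.

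The table held 1453 cells with 3376 to 483669 counts each (median 61090), and 22 to 88 cells and 2540816 to 11857191 counts per embryo. Of the marker genes listed for each family, the level was highest in the own family for 6 of 6 in TE, 5 of 5 in PGC, 7 of 8 in VE/YE, 4 of 6 in EXMC, 4 of 7 in AM, 3 of 6 in EPI and 1 of 6 in Gast, so these markers separated Gast and EPI less well than the other families. One embryo stood apart. In day 13 replicate 1, 58 of 5787 genes that had at least 10 CPM in each of the 20 other embryos had no count in any cell. In the other embryos this number was 0. NDUFA13, NDUFS6 and UQCR10 were among the 58, at 0 CPM against 398 to 957, 317 to 953 and 34.9 to 1381 CPM in the other embryos. The 2 calls below that name NDUFA13 or NDUFS6 are therefore given with and without that embryo.

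Together the 50 genes took 1.99% of all counts, and all 83 subunit genes 3.20%. Over whole embryos the share of the 50 genes was 1.40 to 1.82% (median 1.57%) in the 5 culture-label embryos and 1.85 to 2.81% (median 2.05%) in the 16 developmental-label embryos. The 2 label types did not overlap for the 50 genes, but without NDUFA13 and NDUFS6 the ranges were 1.32 to 1.76% and 1.70 to 2.62% and met. Both label types occurred at day 17, where the shares were 1.40% and 1.43% in the culture-label embryos and 1.94% in the developmental-label embryo. By day, shares ran from 1.85 to 1.98% at day 11, 1.82 to 2.81% at day 12, 1.57 to 1.89% at day 13, 1.95 to 2.05% at day 14, 2.16 to 2.31% at day 16 and 1.40 to 1.94% at day 17. Day 16, with developmental labels only, had a narrow range, and day 17 held the lowest shares.

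Shares within families used every embryo with at least 3 cells of the family, so they include embryos with too few cells for a sum. In EPI the share was 1.42 to 1.69% in 5 culture-label embryos and 1.93 to 2.74% in 13 developmental-label embryos, with no overlap. The 2.74% was that of day 17 replicate 3, which had too few EPI cells for a sum. In EXMC it was 1.39 to 1.98% against 1.77 to 2.88%, in TE 1.16 to 1.92% against 1.68 to 2.89%, and in VE/YE 1.34 to 1.58% (3 embryos) against 1.24 to 2.62%, and these ranges overlapped. The lowest VE/YE share belonged to the developmental-label embryo of day 17. Between families the medians lay close together: 2.28% in Gast, 2.21% in PGC, 2.12% in AM, 1.99% in EXMC, 1.98% in EPI, 1.89% in TE and 1.84% in VE/YE. The ranges of these 7 families all overlapped, so their order did not exceed the spread between embryos.

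**Figure D1:**
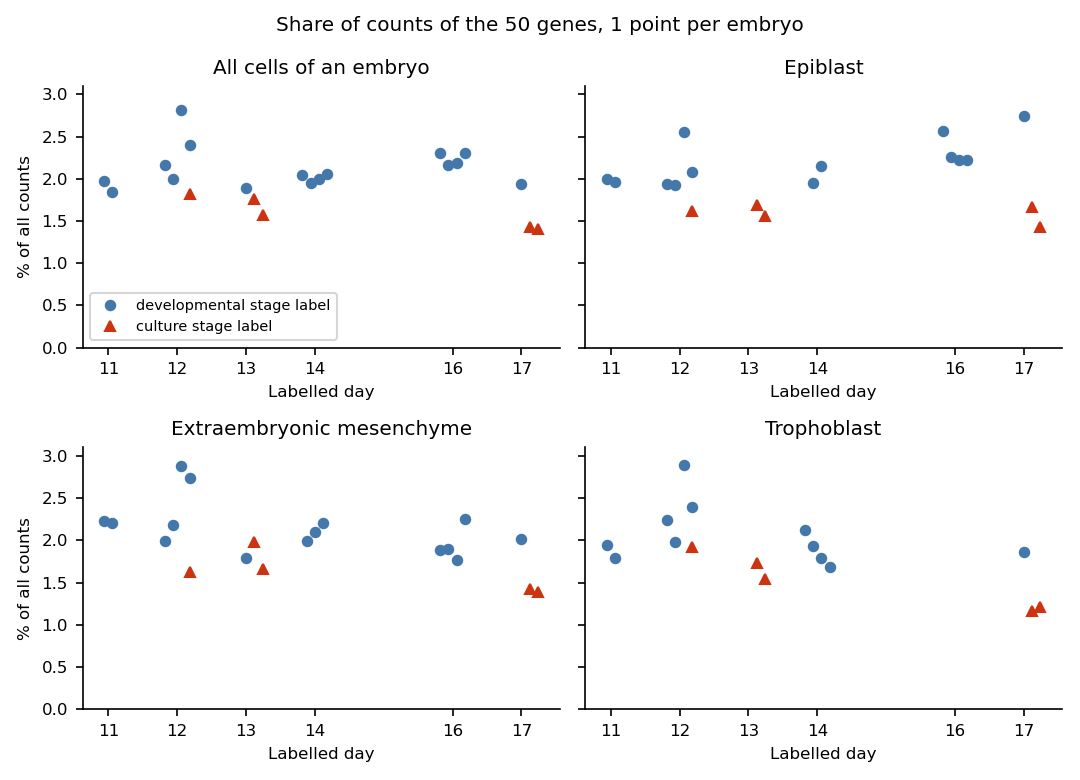
Percentage of all counts taken by the 50 genes (vertical axis) against the labelled day (horizontal axis), over all cells and in epiblast, extraembryonic mesenchyme and trophoblast; each point is 1 embryo, circles carry a developmental stage label and triangles a culture stage label. Over all cells the triangles lie at 1.40 to 1.82% and the circles at 1.85 to 2.81%, and at day 17 both kinds of label are present.

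To see which genes carried this difference, the label types were compared with the day as a factor, a comparison added after the data were seen. In whole embryos 42 of the 50 genes had a lower fitted level under the culture label, with a median log2 difference of -0.37 against 0.02 over all genes, but 0 of 50 passed an adjusted p of 0.05 (0% of all genes rose and 0.0101% fell). At an unadjusted p under 0.05 edgeR counted 19 of the 50, against 1590 of all 19791 genes, and DESeq2 called 7. NDUFB1, an accessory complex I subunit, was at 769 to 847 CPM (median 819) in the 5 culture-label embryos and at 863 to 2705 CPM (median 1346) in the 16 others. Its ranges did not overlap, and its difference was -0.73 ± 0.17 log2 (SE, adjusted p = 0.18). ATP5E, the epsilon subunit of ATP synthase, was at 769 to 1031 CPM (median 939) against 1095 to 2701 CPM (median 1663), also without overlap, and differed by -0.77 ± 0.19 log2 (adjusted p = 0.20). NDUFS5, a small accessory subunit of complex I, was at 176 to 416 CPM against 341 to 980 CPM, with overlap. Of the further subunits, COX7A2, the broadly expressed form of a small complex IV subunit, was at 241 to 412 CPM against 541 to 1312 CPM and differed by -1.29 ± 0.23 log2 (adjusted p = 0.086). These 4 genes were named after their values were seen. Without day 13 replicate 1 the count was 1, and without day 13 replicate 3 it was 3.

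The same comparison within EXMC gave 42 of 50 genes below 0, a median of -0.43 against 0.03 over all genes, and 0 calls by edgeR (0% of all genes in each direction). There edgeR had 12 of the 50 at an unadjusted p under 0.05, against 713 of all 14275 genes, and DESeq2 called 1. Leaving out day 13 replicate 1 gave 1 call and leaving out day 13 replicate 3 gave 4. In TE 2 of 49 genes tested fell under the culture label and 0 rose (0.2% of all genes fell and 0.164% rose). They were NDUFS5, by 1.58 ± 0.33 on the log2 scale (adjusted p = 0.033), and ATP5B, the catalytic beta subunit, by 3.46 ± 0.72 on that scale (adjusted p = 0.039). At day 17 NDUFS5 in TE was at 148 and 207 CPM in the culture-label embryos and 568 CPM in the developmental-label embryo, and ATP5B at 5.71 and 10.8 CPM against 45.6 CPM. Among the further subunits of TE, COX7C, COX5A, UQCRH and COX4I1 also fell, COX5A by 4.17 ± 0.61 on the log2 scale (adjusted p = 0.0049). The TE count was 0 without day 11 replicate 1 or 2, day 12 replicate 1, day 14 replicate 2, or day 17 replicate 1 or 3, 1 without day 12 replicate 4 and 4 without day 12 replicate 3.

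The next question was which of the genes differed between cell families. Each family was compared with EPI within the same embryos, so that the embryo and its label type are held fixed, and the 6 contrasts share the EPI sums. Over all families, 25 of the 50 genes and 22 of 32 further subunits tested changed (15 of complex I, 1 of complex IV and 9 of complex V among the 50), against 58.9% of all genes. With the 4 day 16 embryos only, the count among the 50 was 4.

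VE/YE differed from EPI in the most genes. There 18 of the 50 genes were lower and 3 higher (15.3% of all genes fell and 9.82% rose), with a median of -0.33 against -0.25 over all genes, and 16 of 32 further subunits were lower and 1 higher. In complex I, 7 of the 8 genes of the module that binds ubiquinone fell, counting both named and further subunits. NDUFB10, an accessory subunit of the membrane arm, was at 217 to 891 CPM (median 578) in 14 EPI sums and at 218 to 492 CPM (median 292) in 9 VE/YE sums. The ranges overlapped, and within embryos NDUFB10 fell by 0.84 ± 0.15 on the log2 scale (adjusted p = 1.4e-05). ATP5D, the delta subunit, was at 138 to 408 CPM (median 196) in EPI and 21.4 to 251 CPM (median 98.3) in VE/YE, and fell by 1.05 ± 0.20 (adjusted p = 4.0e-05). Other genes of complex V lower in VE/YE were ATP5G1 (-0.82 ± 0.17), ATP5G2 (-0.61 ± 0.14) and ATP5A1 (-0.47 ± 0.13). Of complex I, NDUFA12 (-0.68 ± 0.16), NDUFS3 of the peripheral arm (-0.83 ± 0.22), NDUFV2, which holds an iron-sulphur cluster (-0.73 ± 0.18), and NDUFS1, the largest peripheral arm subunit (-0.94 ± 0.35), fell.

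In complex II, which also works in the citric acid cycle, SDHB was at 21.9 to 281 CPM (median 124) in EPI and 8.70 to 91.3 CPM (median 32.2) in VE/YE and fell by 1.65 ± 0.28 on the log2 scale (adjusted p = 6.4e-06). The membrane anchor SDHD fell by 0.58 ± 0.22 on the same scale (adjusted p = 0.040), but its difference was 0.13 with day 16 embryos only. In fits that left out 1 embryo, SDHD passed in 14 and NDUFS1 in 12 of 21. COX7C, a complex IV subunit, was at 205 to 3792 CPM in EPI and 289 to 2733 CPM in VE/YE and fell by 0.90 ± 0.13 within embryos (adjusted p = 2.0e-07). The genes higher in VE/YE were NDUFC1 (0.53 ± 0.17), NDUFB4 (0.42 ± 0.16), NDUFA4L2 (4.58 ± 1.09) and, of the further subunits, COX7A1 (1.56 ± 0.41). The count among the 50 was 12 without the embryo term, 12 with VE/YE and EPI fitted alone, and 4 with day 16 embryos only.

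EXMC had 6 of the 50 genes higher and 5 lower than EPI (12.8% of all genes rose and 17.4% fell), with a median of -0.01 against -0.14 over all genes. NDUFB11, a membrane arm subunit, was at 65.0 to 221 CPM (median 150) in 14 EPI sums and 155 to 389 CPM (median 242) in 19 EXMC sums, overlapping between 155 and 221 CPM, and was higher by 0.82 ± 0.16 log2 (adjusted p = 6.7e-05). NDUFC2 (0.69 ± 0.15), NDUFC1 (0.51 ± 0.14), ATP5G3 (0.43 ± 0.15), NDUFB4 (0.35 ± 0.13) and NDUFA1 (0.31 ± 0.11) were also higher. NDUFB1 (-0.45 ± 0.10), NDUFB10 (-0.44 ± 0.12), NDUFB5 (-0.49 ± 0.14), ATP5G2 (-0.36 ± 0.11) and ATP5A1 (-0.31 ± 0.10) were lower. Of 32 further subunits 2 were higher and 10 lower. The EXMC count was 6 without the embryo term, 7 with no filter on low counts and 0 with day 16 embryos only, where the difference of NDUFB4 was -0.19.

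TE had 9 genes higher in the fit, NDUFA4L2 among them, and 9 lower (17.4% of all genes rose and 23.2% fell), with a median of 0.03 against -0.18 over all genes. The genes of the ATP synthase c ring, whose rotation couples proton flow to ATP synthesis, moved apart. ATP5G2 was at 382 to 735 CPM (median 529) in EPI and 192 to 521 CPM (median 303) in 15 TE sums, and fell by 0.78 ± 0.12 on the log2 scale (adjusted p = 1.3e-07). ATP5G3 was at 35.7 to 310 CPM (median 195) in EPI and 70.0 to 430 CPM (median 324) in TE, and rose by 0.75 ± 0.16 (adjusted p = 7.3e-05). ATP5G1 did not pass the test. The 3 genes encode the same mature protein and have processed copies in the genome, so reads could be divided between them and their values are uncertain. ATP5F1, the b subunit of the peripheral stalk (0.73 ± 0.15), ATP5J, its F6 subunit (0.47 ± 0.12), NDUFA5 (0.62 ± 0.18), NDUFB11 (0.55 ± 0.18), NDUFC2 (0.40 ± 0.16) and NDUFB4 (0.34 ± 0.14) were also higher in TE. NDUFA13 was higher by 0.54 ± 0.14 with all embryos and by 0.54 without day 13 replicate 1. NDUFB1 (-0.63 ± 0.10), ATP5A1 (-0.50 ± 0.11), NDUFA7 (-0.60 ± 0.16), NDUFB10 (-0.47 ± 0.13), ATP5J2 (-0.41 ± 0.11), NDUFS3 (-0.65 ± 0.18), NDUFS5 (-0.29 ± 0.11) and SDHD (-0.43 ± 0.18) were lower. Of the further subunits 3 were higher, COX8A among them (0.74 ± 0.17), and 9 lower. The fitted value of NDUFA4L2 in TE (3.13 ± 1.17) turned to -1.33 without the embryo term. That gene was at 0 in 12 of 15 TE sums and 10 of 14 EPI sums, so no direction is read from it and 8 genes remain higher. Summed over all cells it was at 0.576 CPM in TE and 1.33 CPM in EPI. SDHD was below 0 in all 21 fits that left out 1 embryo and passed the test in 6 of them.

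AM, Gast and PGC had few calls. In AM 1 of the 50 genes was lower and 0 higher (2.74% of all genes fell and 3.41% rose). It was NDUFS4, a complex I assembly-stabilising subunit, at 104 to 426 CPM (median 208) in 6 AM sums and 109 to 863 CPM (median 299) in EPI, with overlap (-0.70 ± 0.20, adjusted p = 0.027). Leaving out day 12 replicate 1 or 2, or day 16 replicate 2 or 4, ended that call, as did every alternative setting except DESeq2. In Gast 0 of 50 genes passed by edgeR (1.15% of all genes rose and 0.446% fell), with 1 call by DESeq2. An unadjusted p under 0.05 by edgeR was reached by 6 of the 50, against 2578 of all 17496 genes. In PGC 0 of 50 passed by edgeR (1.55% of all genes rose and 2.53% fell), with 2 calls by DESeq2. An unadjusted p under 0.05 by edgeR was reached by 9 of the 50, against 3832 of all 17496 genes. In PGC 1 further subunit, UQCRH of complex III, was lower (-0.995 ± 0.274, adjusted p = 0.024, but 0.04 log2 without the embryo term). Without day 16 replicate 2 the counts were 1 in Gast and 2 in PGC. PGC was present as 3 sums of day 16 only, with 17 cells, which limits what could be detected.

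**Figure D2:**
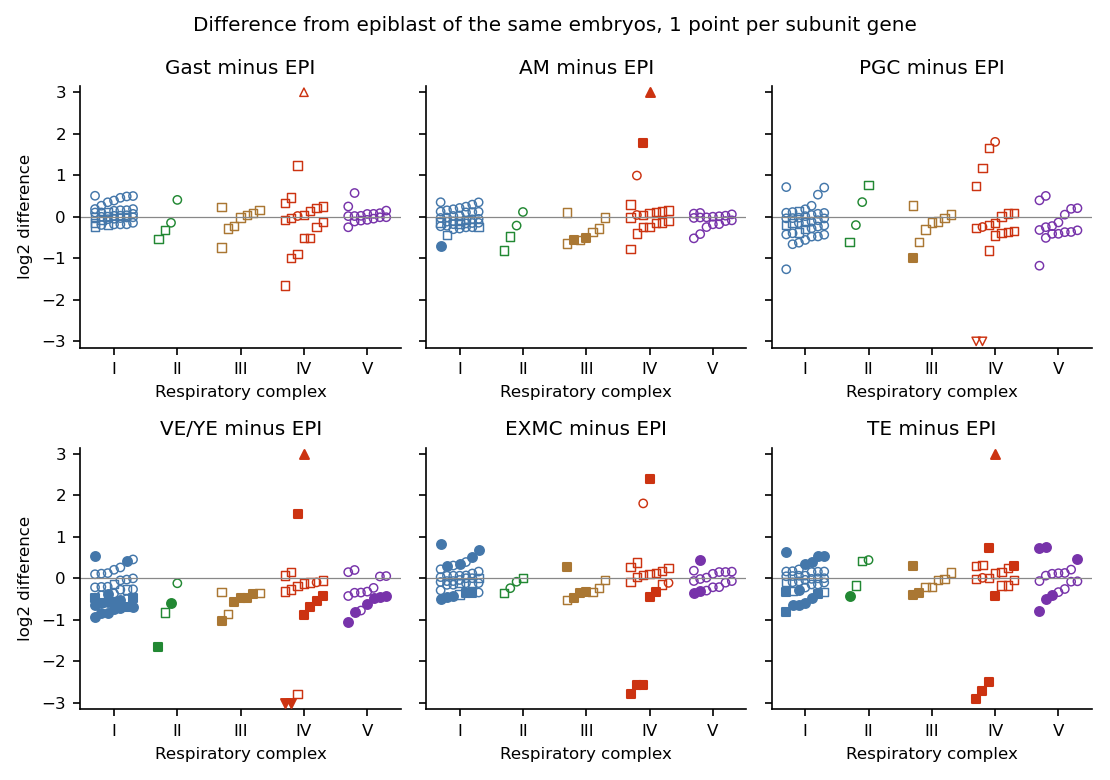
Log2 difference from epiblast in the same embryos (vertical axis) for the subunit genes of each respiratory complex (horizontal axis) in 6 families; circles are the 50 genes found by name, squares the further subunits, filled symbols have an adjusted p under 0.05 by edgeR, and triangles lie beyond the axis at 3 or -3. Most filled symbols of VE/YE lie below 0, those of EXMC and TE lie on both sides, and few symbols are filled in Gast, AM and PGC.

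Several paralogs with restricted expression differed between families. COX4I1 and COX7A2, the broad forms, were read in each sum of the family contrasts, with lowest levels of 140 and 233 CPM. COX4I2, the alternative form of subunit 4, was at 22.3 and 59.8 CPM in AM at day 12 and at 182, 389, 574 and 690 CPM in AM at day 16. It was at 59.3, 85.5 and 90.7 CPM in the 3 PGC sums, at 0 to 29.8 CPM in 14 EPI sums and at 0 to 3.92 CPM in 15 TE sums. The AM sums of day 16 lay above every EPI and TE sum, and the difference from EPI within embryos was 3.89 ± 0.81 log2 in AM (adjusted p = 0.0014) and -2.50 ± 0.73 in TE (adjusted p = 0.0051). Reads for COX4I2 were found in 36 of 42 AM cells of day 16 and in 17 of 356 TE cells of days 11 to 14. With each cell thinned to 20000 counts, these shares were 83.3% of 36 cells and 1.35% of 296 cells, and the median depth before thinning was 66898 and 70056 counts per cell. These groups differ in day as well as family. In AM of days 11 to 14 the thinned share was 38.1% of 21 cells.

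COX7A1, the heart and muscle form of subunit 7A, was at 1.48 to 34.9 CPM (median 12.9) in EPI, 14.5 to 285 CPM (median 64.9) in EXMC and 11.2 to 170 CPM (median 89.0) in AM. It was higher than in EPI by 2.40 ± 0.34 log2 in EXMC (adjusted p = 5.5e-08), by 1.77 ± 0.43 in AM (adjusted p = 0.0065) and by 1.56 ± 0.41 in VE/YE (adjusted p = 0.0029). In Gast (1.23 ± 0.42) and PGC (1.65 ± 0.55) it did not pass, with adjusted p = 0.12 and 0.069. In TE it was at 0.877 to 114 CPM with a median of 6.73 CPM.

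COX8C, the testis form of subunit 8, was at 3.85 to 306 CPM (median 113, 8 sums) in EPI of days 11 to 14 and at 108 and 142 CPM in the 2 Gast sums of day 14, within that range. Over all cells of days 11 to 14 it was at 158 CPM in Gast and 133 CPM in EPI. In Gast of day 16 it was at 6.57 to 39.7 CPM. In AM it was at 78.1 and 84.9 CPM in the 2 sums of day 12, also within the early EPI range, and at 7.49 to 32.0 CPM at day 16. It was at 20.0, 33.8, 43.5 and 46.3 CPM in EPI of day 16 and at 0 and 1.58 CPM in EPI of day 17. Summed over cells, day 16 EPI held 33.3 times the COX8C level of day 17, from 367 and 3 counts (exact 95% counting interval 11.3 to 162). Relative to EPI, COX8C was lower by 2.80 ± 0.72 log2 in EXMC, 2.72 ± 0.76 in TE and 3.19 ± 1.03 in VE/YE (adjusted p = 0.0023, 0.0033 and 0.018), as fitted values that depend on sums at 0. COX7B2, another testis form, was at 0 to 34.3 CPM (median 3.90, 13 sums) in TE of days 11 to 14. Counts were found in 83 of 356 TE cells and in 24 of 170 EPI cells of those days. Median depths were 70056 and 57125.5 counts per cell. Between TE and EPI within embryos, COX7B2 passed in 0 of 21 fits that left out 1 embryo (-0.0008 to 0.76 log2). In EXMC COX7B2 was lower than in EPI (-3.02 to -2.10 log2) and passed in 20 of 21 such fits. In EPI COX7B2 was at 0.746 to 26.7 CPM on days 11 to 14 and at 0, 0, 0 and 0.384 CPM at day 16. That was a fall from 90 counts to 1. The ratio of day 16 to days 11 to 14 was 0.0156 (exact 95% counting interval 0.000391 to 0.0893).

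NDUFA4L2, a paralog of the complex IV subunit NDUFA4 that is known as a target of the hypoxia-inducible factor, was close to absent before day 16. In VE/YE it was at 0 CPM in all 4 sums of days 11 to 13, at 52.3, 96.4, 111 and 174 CPM in the 4 sums of day 16 and at 0 in the 1 sum of day 17. Over all VE/YE cells, 274 counts at day 16 and 7 before, the latter in 1 cell of an embryo with too few VE/YE cells for a sum, gave a ratio of 50.9 (exact 95% counting interval 24.4 to 128), and day 16 was at least 44.7-fold higher than day 17, which held 0 counts (floor of 3 counts over the group). Counts were found in 22 of 39 VE/YE cells at day 16 and in 1 of 49 earlier, against 8 of 356 early TE cells, with median depths of 50315 counts per VE/YE cell of day 16 and 70056 per TE cell. Thinned to 20000 counts, the shares were 53.6% of 28 VE/YE cells of day 16 and 0.338% of 296 TE cells of days 11 to 14. These groups differ in day as well as family. Among cells of day 16 the thinned shares were 19.5% of 41 in Gast, 15.4% of 13 in PGC and 13.9% of 36 in AM. They were 7.87% of 89 in EPI and 5.80% of 69 in EXMC. In Gast NDUFA4L2 was at 0 in both day 14 sums and at 0, 40.3, 45.3 and 49.0 CPM at day 16. In EPI it was at 0 in all 8 early sums and both sums of day 17, and at 0.563, 1.14, 2.56 and 10.6 CPM at day 16, and did not pass between these periods (adjusted p = 0.084). Over all EPI cells, 42 counts at day 16 and 0 before made day 16 at least 19.7-fold higher (floor of 3 counts over the group), and at least 7.64-fold without day 16 replicate 2. Its paralog NDUFA4 was read in each of the 72 sums of the family contrasts, from 213 to 1620 CPM. The part of free RNA from other cells in these counts was not tested.

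**Figure D3:**
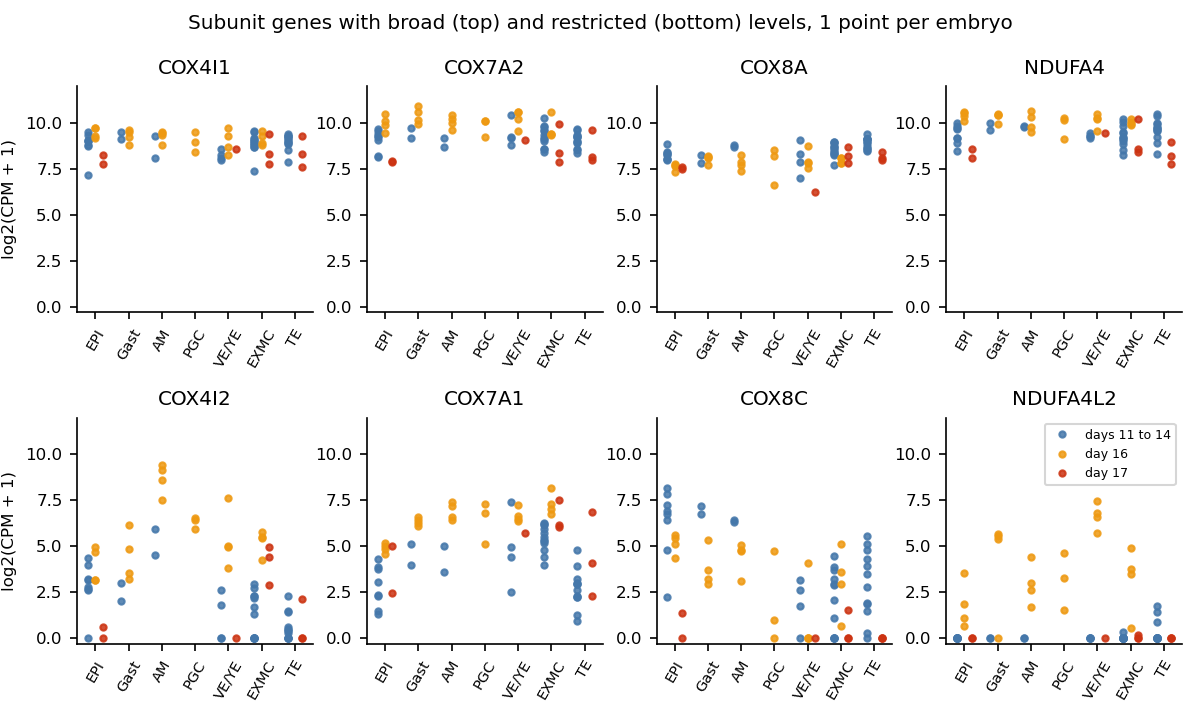
Level as log2(CPM + 1) (vertical axis) of 4 broadly expressed subunit genes (top) and 4 paralogs with restricted expression (bottom) in 7 cell families (horizontal axis); each point is 1 family in 1 embryo, coloured by period (days 11 to 14, day 16, day 17). COX4I2 is highest in AM of day 16, COX8C lies high in EPI, Gast and AM of days 11 to 14, and NDUFA4L2 is highest in VE/YE of day 16, while the top panels lie in a narrow band.

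The days were then compared within EPI and EXMC, since VE/YE, which also had sums in all 3 periods, had 1 sum at day 17. In the test, days 11, 12, 13 and 14 weighed equally on the early side, so the 1 EPI sum of day 13 counted as a whole day. That sum, replicate 2, and day 12 replicate 1 carry a culture label. Early EXMC sums also included culture labels, on days 12 and 13, while all day 16 sums carry a developmental label. The EPI annotation also changed between these periods, from postE-EPI to postL-EPI, so in EPI day and annotation cannot be told apart. In EPI 8 of the 50 genes rose from days 11 to 14 to day 16 and 0 fell (3.19% of all genes rose and 1.02% fell), and 38 of 50 lay above 0 with a median of 0.44 against 0.22 over all genes. ATP5E was at 646 to 1585 CPM (median 1030) in 8 early EPI sums and at 2129, 2201, 2474 and 2869 CPM at day 16. Its ranges did not overlap, and ATP5E rose by 1.39 ± 0.17 log2 (adjusted p = 2.9e-05). NDUFB1 was at 1002 to 1756 CPM (median 1430) early and at 2230, 2529, 2628 and 3348 CPM at day 16, without overlap, and rose by 1.05 ± 0.18 (adjusted p = 0.00089). NDUFA4 was at 363 to 983 CPM (median 706) and at 1062, 1288, 1490 and 1533 CPM, without overlap, and rose by 1.16 ± 0.21 (adjusted p = 0.0014). Without day 13 replicate 2 the rises of ATP5E, NDUFB1 and NDUFA4 were 1.18, 0.89 and 0.88 log2, the lowest of the fits that left out 1 embryo.

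ATP5I, the e subunit that helps ATP synthase form dimers, was at 772 to 1447 CPM early and at 1527, 1664, 2074 and 3699 CPM at day 16, and rose by 1.04 ± 0.21 (adjusted p = 0.0051). NDUFS5 (1.21 ± 0.22), NDUFS4 (1.25 ± 0.27), NDUFA7 (0.94 ± 0.25) and NDUFC2 (0.78 ± 0.21) also rose, of which NDUFS5, NDUFS4 and NDUFC2 overlapped between periods. In all, 5 of 49 genes of day 16 lay above and 1 below every early sum, and this was not counted over all genes. Of 31 further subunits 8 rose and 1 fell. COX7C rose by 1.55 ± 0.30 and COX7A1 by 2.41 ± 0.66, and the one that fell was COX7B2. COX7A1 passed in 5 and COX7B2 in 8 of 14 fits that left out 1 embryo. Without day 16 replicate 1 the count among the 50 was 5, with developmental labels only it was 5, and with no filter on low counts 14.

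From day 16 to day 17, 10 of the 50 genes fell in EPI and 0 rose (2.34% of all genes fell and 0.777% rose), and 42 of 50 lay below 0 with a median of -0.72 against -0.16 over all genes. This comparison shares the day 16 sums with the one above, and both EPI sums of day 17 carry a culture label while the 4 of day 16 carry a developmental label, so day and label type cannot be told apart. Day 17 replicate 3, with a developmental label and 3 EPI cells, too few for a sum, had a share of 2.74% for the 50 genes, above the 2.22 to 2.56% of EPI at day 16. ATP5E was at 922 and 1107 CPM at day 17, NDUFB1 at 1025 and 1038, NDUFA4 at 283 and 403, and NDUFS5 at 207 and 223 CPM, each below every day 16 sum. NDUFA4 fell by 2.01 ± 0.32 (adjusted p = 0.00088) and NDUFS5 by 2.18 ± 0.35 on the log2 scale (adjusted p = 0.0010). ATP5I (-1.76 ± 0.33), ATP5L, the g subunit (-1.61 ± 0.31), NDUFB1 (-1.42 ± 0.26), ATP5E (-1.29 ± 0.26), ATP5G3 (-1.95 ± 0.47), ATP5G1 (-1.18 ± 0.30), NDUFB10 (-1.33 ± 0.33) and ATP5B (-3.10 ± 0.79) made up the rest. Of 49 genes 26 had both day 17 sums below all 4 day 16 sums. That count was not made over all genes, so it cannot be set against a background share. Of 31 further subunits 11 fell, among them COX7A2 (-2.08 ± 0.35) and UQCRQ of complex III (-1.65 ± 0.30). The count was 2 without day 17 replicate 1, 1 without day 17 replicate 2, which leaves 1 sum in that arm, and 19 by DESeq2.

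In EXMC, genes moved in both directions between early days and day 16. Of the 50 genes 4 rose and 5 fell (14.3% of all genes rose and 4.9% fell), with a median of -0.16 against 0.24 over all genes. Without NDUFA4L2, all 49 genes overlapped between day 16 and the early sums, and this was not counted over all genes. NDUFB1 (0.84 ± 0.23), ATP5E (0.70 ± 0.23) and NDUFA4 (0.76 ± 0.25) rose, as did NDUFA4L2. In EXMC, ATP5E was at 1601, 1711, 2208 and 3393 CPM at day 16 against 991 to 2614 CPM (median 1347) in 12 early sums, so the ranges overlapped. NDUFA4L2 was at 0 CPM in 11 of 12 early sums and 0.278 CPM in the other, and at 0.436, 10.1, 12.6 and 28.9 CPM at day 16. It had 84 counts in EXMC cells of day 16 and 2 in those of days 11 to 14, a ratio of 127 (exact 95% counting interval 34.0 to 1064), and 67.2 without day 16 replicate 2.

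The genes that fell in EXMC were ATP5F1 of the ATP synthase stalk (-1.09 ± 0.27, adjusted p = 0.0053), ATP5SL (-1.04 ± 0.28), NDUFV1, which binds NADH and flavin (-0.86 ± 0.29), ATP5C1, the gamma subunit (-0.71 ± 0.26), and SDHD (-1.22 ± 0.43). ATP5F1 was at 147 to 360 CPM (median 260) early and at 72.8, 106, 122 and 191 CPM at day 16, overlapping in 1 sum. SDHD was at 164 to 517 CPM early and at 9.77, 105, 148 and 169 CPM at day 16. SDHB, the iron-sulphur subunit of the same complex, was at 74.2 to 219 CPM early and at 28.3, 32.8, 70.4 and 74.1 CPM at day 16, without overlap, and fell by 1.19 ± 0.33 (adjusted p = 0.0097). Of complex II, SDHC did not pass the test and SDHA was not tested. Of complex IV, COX4I2 was at 0 to 7.17 CPM (median 1.86, 5 of 12 sums at 0) early and at 18.0, 42.8, 45.7 and 56.8 CPM at day 16 and rose by 4.50 ± 0.66 (adjusted p = 1.3e-05). COX7A1 was at 14.7 to 76.2 CPM early and at 108, 130, 155 and 301 CPM at day 16 and rose by 1.96 ± 0.33 (adjusted p = 0.00012). Both were higher in every day 16 sum than in any early one. In fits that left out 1 embryo, SDHD passed in 3 of 19, ATP5C1 in 7, NDUFA4 in 8 and ATP5E in 11. Without day 16 replicate 4 ATP5E was at 0.40 log2 and NDUFB1 at 0.52. The EXMC count was 4 without day 11 replicate 2 and 5 without day 14 replicate 3 or day 16 replicate 4.

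From day 16 to day 17 in EXMC, 1 of the 50 genes fell, NDUFA4L2, and 0 rose (0.813% of all genes fell and 0.911% rose). At an unadjusted p under 0.05 there were 8 of the 50, against 2097 of all 14275 genes. The 3 day 17 sums divided by label type. NDUFB1 was at 745 and 815 CPM in the culture-label embryos and 1514 CPM in the developmental-label one, ATP5E at 862 and 942 against 1943 CPM, and NDUFA4 at 375 and 337 against 1130 CPM. For each of these the developmental-label embryo lay within the day 16 range and both culture-label embryos lay below it. They were named after their values were seen. NDUFA4L2 was at 0, 0 and 0.132 CPM at day 17. The count was 0 without day 11 replicate 2, day 14 replicate 1 or 3, day 16 replicate 1, 2 or 4, or day 17 replicate 1 or 2, and 2 without day 17 replicate 3.

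**Figure D4:**
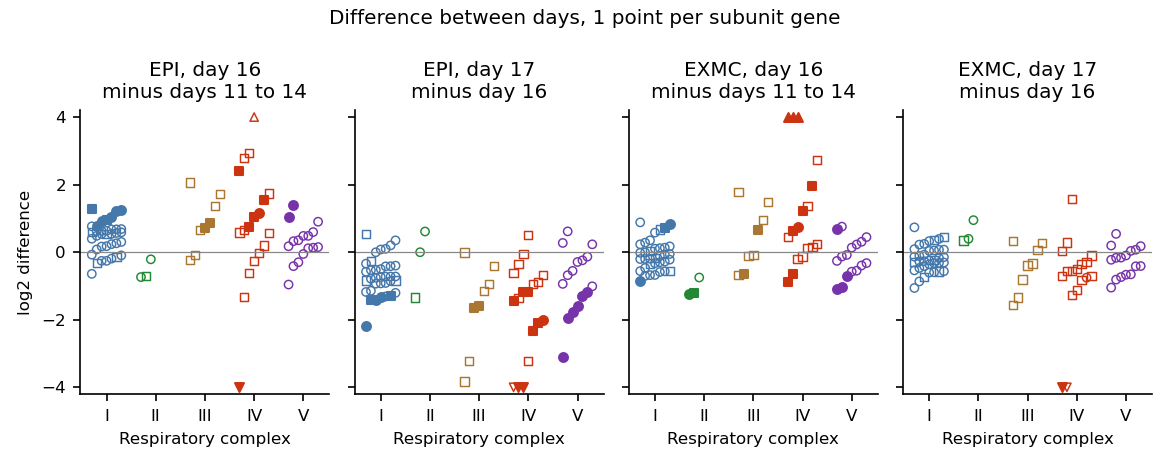
Log2 difference between periods (vertical axis) for the subunit genes of each respiratory complex (horizontal axis) in epiblast (EPI) and extraembryonic mesenchyme (EXMC); circles are the 50 genes found by name, squares the further subunits, filled symbols have an adjusted p under 0.05 by edgeR, and triangles lie beyond the axis at 4 or -4. In EPI most points lie above 0 at day 16 and below 0 from day 16 to day 17, where both day 17 sums carry a culture label, and in EXMC they lie on both sides.

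In TE, the largest family after EXMC, 11 of 49 genes tested fell per day and 0 rose (6.78% of all genes fell and 8.07% rose), 44 lay below 0, and the median slope was -0.12 log2 per day against -0.01 over all genes. There were 8 genes of complex I and 3 of complex V among them. NDUFS3, a subunit of the peripheral arm, was at 103 to 341 CPM (median 141) in 13 TE sums of days 11 to 14 and at 33.2, 36.5 and 38.6 CPM at day 17, with no overlap, and fell by 0.39 ± 0.08 on the log2 scale per day (adjusted p = 0.0028). NDUFB5 was at 183 to 308 CPM early and 115 to 133 CPM at day 17, again without overlap (-0.17 ± 0.05, adjusted p = 0.029). NDUFA12 was at 242 to 970 CPM (median 456) and at 153, 211 and 284 CPM (-0.25 ± 0.06), and NDUFA8 at 126 to 459 CPM (median 252) and 74.3, 102 and 151 CPM (-0.25 ± 0.06).

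ATP5I was at 893 to 2936 CPM early and at 396, 521 and 1483 CPM at day 17, where the highest value was that of the developmental-label embryo (-0.21 ± 0.07). The others that fell were NDUFA10 (-0.17 ± 0.05), NDUFS7 (-0.20 ± 0.06), NDUFB8 (-0.18 ± 0.06), ATP5G1 (-0.17 ± 0.06), ATP5J (-0.13 ± 0.04) and NDUFB10 (-0.15 ± 0.05). Of 29 further subunits 6 fell and 1, COX7A1, passed as higher (0.49 ± 0.16, adjusted p = 0.037). COX7A1 was at 3.91, 16.0 and 119 CPM in the 3 TE sums of day 17. Its slope was 0.09 without day 17 replicate 3, which held the 119 CPM, and it passed in 9 of 16 fits that left out 1 embryo. For NDUFS3 all 3 embryos of day 17 were low whatever their label. In fits that left out 1 embryo, ATP5I passed in 11 of 16, NDUFS7 in 10, NDUFA10 in 8 and ATP5G1 in 7. With the label type as a covariate, added after the data were seen, the count was 5 in place of 11, and with developmental labels only, where day 17 has 1 embryo, the count was 0. Size factors of DESeq2 gave 4. The count was 3 without day 17 replicate 1 and 5 without day 17 replicate 2, and 5 to 7 without day 11 replicate 1 or 2, day 12 replicate 2, 3, 4 or 5, or day 14 replicate 3.

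**Figure D5:**
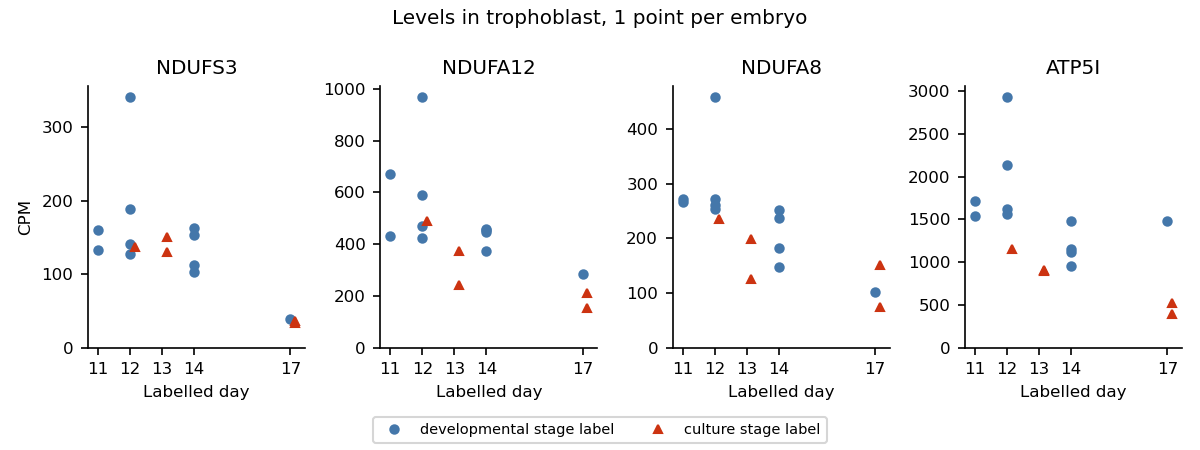
Level in CPM (vertical axis) against labelled day (horizontal axis) of NDUFS3, NDUFA12, NDUFA8 and ATP5I in trophoblast; each point is 1 embryo, circles carry a developmental stage label and triangles a culture stage label. The 3 embryos of day 17 lie at 33.2 to 38.6 CPM for NDUFS3, while for ATP5I the developmental-label embryo lies at 1483 CPM and the others at 396 and 521 CPM.

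Whether the change with day differed between EPI, EXMC and TE was tested directly with embryo as a block. Of the 50 genes 10 differed (7 of complex I, 1 of complex IV and 2 of complex V), against 6.24% of all genes, as did 3 of 32 further subunits. The smallest adjusted p was that of NDUFC2 (0.00081), whose slopes per day were 0.15 ± 0.05 in EPI, -0.04 ± 0.04 in EXMC and -0.09 ± 0.05 in TE. For ATP5I (adjusted p = 0.0012) they were 0.11 ± 0.08, -0.04 ± 0.06 and -0.21 ± 0.07. For NDUFS7 (adjusted p = 0.013) they were 0.05 ± 0.06, -0.09 ± 0.04 and -0.20 ± 0.06, and for NDUFA12 (adjusted p = 0.036) 0.02 ± 0.05, -0.10 ± 0.05 and -0.25 ± 0.06. In each of these 4 genes the slope in TE was the lowest. The slopes are those fitted within each family, and they span unlike days. TE had no sum at day 16, in its slope or in the test, while EPI and EXMC had 4 each. NDUFA4, ATP5E, NDUFS4, NDUFB5, NDUFC1 and NDUFS6 made up the 10, and NDUFS6 kept an adjusted p of 0.0019 with and without day 13 replicate 1. COX4I2, COX7C and UQCRQ were the further subunits. The count was 5 without day 12 replicate 1, 6 without day 17 replicate 1 or 3, and 4 without day 17 replicate 2.

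Slopes over all days were also fitted in whole embryos and in the other families. In whole embryos 5 of 49 genes fell and 1 rose per day (10.5% of all genes fell and 11.4% rose), with a median of -0.05 against 0.01 over all genes. NDUFA8 (-0.18 ± 0.04), ATP5F1 (-0.23 ± 0.05), NDUFA5 (-0.20 ± 0.06), ATP5H, the d subunit (-0.10 ± 0.03), and ATP5G1 (-0.12 ± 0.04) fell, and ATP5G2 rose (0.11 ± 0.03). ATP5G1 passed in 5 of 21 fits that left out 1 embryo. The further subunits with the smallest adjusted p were COX7A1, which rose (0.53 ± 0.09, adjusted p = 0.00022), and COX8A, the broad form of subunit 8, which fell (-0.20 ± 0.03, adjusted p = 0.00028). In EXMC 6 of 49 fell and 0 rose (4.64% of all genes fell and 7.15% rose): SDHD (-0.25 ± 0.08), ATP5SL (-0.21 ± 0.05), NDUFA5 (-0.21 ± 0.06), ATP5G1 (-0.18 ± 0.05), ATP5F1 (-0.18 ± 0.05) and ATP5H (-0.13 ± 0.04). Whole-embryo sums mix families in different numbers, and fewer cells of a family and less RNA per cell cannot be told apart in them.

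In EPI 0 of 49 genes passed for a slope by edgeR (1.94% of all genes rose and 1.87% fell), with 1 call by DESeq2. An unadjusted p under 0.05 by edgeR was reached by 8 of the 49, against 2204 of all 11589 genes. The rise to day 16 and the lower values of day 17 are both in that slope. Adding label type to the fit gave 3, developmental labels alone gave 4, and 1 without day 12 replicate 3 or day 17 replicate 1 or 2. In VE/YE 0 of 49 passed by edgeR (0.132% of all genes rose and 0.0132% fell), with 1 call by DESeq2. An unadjusted p under 0.05 by edgeR was reached by 5 of the 49, against 724 of all 7602 genes. The count of calls was 3 without day 17 replicate 3, the only day 17 sum there.

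Other genes of mitochondria and of glycolysis were counted in the same fits. From early days to day 16, 13 of 16 glycolysis genes rose in EXMC (median 1.30 log2), against 14.3% of all genes and a median of 0.24, and 11 of 17 in EPI (median 1.19), against 3.19% and 0.22. In EPI the enzyme TPI1 rose by 2.52 ± 0.23 (adjusted p = 4.8e-07) and the phosphofructokinase PFKP by 3.26 ± 0.45, and in EXMC the lactate carrier SLC16A3 by 2.02 ± 0.28 (adjusted p = 4.4e-06). Of 10 genes that switch pyruvate away from mitochondria or respond to low oxygen, 4 rose and 1 fell in EXMC, and 5 rose and 1 fell in EPI. BNIP3L, a mitophagy receptor, rose by 3.08 ± 0.29 in EXMC (adjusted p = 8.4e-09) and by 2.10 ± 0.30 in EPI (adjusted p = 0.00019), and HIGD1A fell in both. From day 16 to day 17, 5 of 16 glycolysis genes fell in EXMC, against 0.813% of all genes, and 5 of 17 in EPI, against 2.34%, and 0 rose in either.

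Partner genes of the electron chain were counted as well. The citric acid cycle list is wider than the cycle itself, since it also holds MPC1, a pyruvate carrier. In EXMC at day 16, where 4.9% of all genes fell, 7 of the 21 genes of that list fell and 0 rose. MPC1 was at -2.33 ± 0.43 and MDH2, malate dehydrogenase, at -1.08 ± 0.24. Genes of the mitochondrial ribosome, which makes the mitochondrially encoded subunits, fell in 17 of 74 cases and rose in 0, and cytochrome c (CYCS) fell by 1.55 ± 0.26 (adjusted p = 6.7e-05). In EPI 1 of 21 genes of the citric acid cycle list fell, against 1.02% of all genes. There 2 of 75 genes of the mitochondrial ribosome rose and 0 fell, near the 3.19% of all genes that rose. In TE 18 of 74 genes of the mitochondrial ribosome fell with day and 0 rose, against 6.78% of all genes that fell. In VE/YE 28 of 75 were lower than in EPI and 0 higher, and 4 of 15 complex I assembly genes were lower, against 15.3% of all genes. These are counts from separate tests, and the difference between families was not tested for the lists.

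Of the regulators of mitochondrial gene expression, NRF1 was lower than in EPI in VE/YE (-1.66 ± 0.45, adjusted p = 0.0039), TE (-1.22 ± 0.38, adjusted p = 0.0073) and EXMC (-1.02 ± 0.36, adjusted p = 0.023). The coactivator PPARGC1A was lower in VE/YE (-3.57 ± 1.08), EXMC (-2.50 ± 0.67) and TE (-1.80 ± 0.71). ESRRG, an estrogen-related receptor, was higher in TE (3.35 ± 0.59, adjusted p = 1.0e-05) and fell with day within TE (-0.88 ± 0.23, adjusted p = 0.020). TFAM, which packages and transcribes mitochondrial DNA, rose in EXMC at day 16 (1.12 ± 0.39, adjusted p = 0.042) and passed in 0 of 6 contrasts with EPI, where the adjusted p was lowest in EXMC (-0.52 ± 0.21, 0.054).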

How the data were processed

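The deposited table holds whole-number counts per gene and cell, made by the authors from 3' end libraries of single cells. Per the submitters' processing notes, the aligner STAR was among the tools. The version of STAR, the reference build, the counting step and any collapsing of reads by molecular barcode were not given in the sources used here. Cell annotations and days are the authors'. Of 16890 genes under numbered identifiers, 3273 were given a symbol by gene ID through RefSeq's T2T-MFA8v1.1 gene table, used for names and gene order only. The mitochondrially encoded subunits were not analysed here. The c subunit genes and others with near-identical copies may share reads, so their values are uncertain.

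Cells of each embryo were added up, giving 21 sums, and cells of each family within an embryo, giving 73 sums. The family contrasts used 72, since 1 TE sum came from an embryo with no other sum. They were tested in edgeR 4.0.16 (R 4.3.3) with the quasi-likelihood test, TMM scaling and filterByExpr over all genes, and Benjamini-Hochberg adjusted p under 0.05 was called. Errors beside log2 values are SE. Family contrasts carry the embryo as a block, since families of an embryo come from the same animal. The 3-family test of day used 47 sums. Embryos are the replicates, so p-values measure the spread between embryos. The fitting step was tested on simulated counts for the EXMC slope with day, EXMC day 17 against day 16, and TE against EPI. The other comparisons were not tested in this way. DESeq2 1.42.0, DESeq2's size factors, no filter, no block, single families, label subsets and leaving out each embryo were alternatives. The label comparison, the label covariate and the day 16 subset were added after the data were seen. Cells were picked singly and no doublet caller was run. Intervals and floors cover counting error only, with each count taken as independent, and leave out the spread between cells and embryos. Whether reads were collapsed by molecule is not known, so they may be too narrow. Depth is given with the results.

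The members and lists were chosen with earlier results of these data known. Named are, per comparison, up to 10 called genes with the smallest adjusted p in each direction, the called gene of largest change in each complex, the complex II and c subunit genes and the subunit paralogs. Of other lists, the counts, the 2 called genes with the smallest adjusted p in each direction, and PPARGC1A, NRF1, TFAM and ESRRG are named. Where a list has more, not all of these are repeated.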

Additional observations from a re-analysis of the deposited data

Results flagged for a closer look

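Of 54 groups of 4 to 10 values tested, 5 held a value far from the others. The cut-off gives about 1 in 20 by chance for normally distributed values. CPM values with sums at 0 are not of that kind and some groups share values, so the 5 are not set against that rate. The share of counts in EPI at day 16 was highest at 2.56%, with the next at 2.26%. COX4I2 in VE/YE was highest at 195 CPM in day 16 replicate 3, with the next at 31.4 CPM, both among the day 16 sums and among all VE/YE sums. COX7B2 in EPI was highest at 0.384 CPM at day 16, where the others were at 0, and at 26.7 CPM on days 11 to 14, where the next was 11.0 CPM.

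The change with day differed between EPI, EXMC and TE for 13 subunit genes by the interaction test of edgeR. The adjusted p was 0.00081 for NDUFC2, 0.0012 for ATP5I, 0.0019 for NDUFS6, 0.0077 for COX7C, 0.0095 for COX4I2, 0.0097 for NDUFA4, 0.013 for ATP5E and 0.013 for NDUFS7. It was 0.018 for UQCRQ, 0.023 for NDUFS4, 0.036 for NDUFA12, 0.036 for NDUFB5 and 0.040 for NDUFC1. Slopes per day in EPI, EXMC and TE were 0.10 ± 0.08, 0.08 ± 0.06 and -0.23 ± 0.09 log2 for NDUFA4, and 0.20 ± 0.06, 0.06 ± 0.05 and -0.04 ± 0.06 for ATP5E. NDUFC1 had slopes of 0.10 ± 0.05, -0.09 ± 0.05 and 0.05 ± 0.05, so that EXMC and not TE was lowest. TE had no sum at day 16, so its slopes span other days than those of EPI and EXMC.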

How the results depend on the processing

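Counts of the 50 genes called stayed within 1.5 times the reported ones except as follows. With DESeq2 the count was 11 for whole embryos with day, 1 for EPI and 1 for VE/YE with day, 6 for day by family, 1 for Gast, 2 for PGC, 19 for EPI day 17 against day 16, and 7, 1 and 4 for the label type in whole embryos, EXMC and TE. With DESeq2's size factors in edgeR it was 4 for TE with day, 4 for day by family, 0 for AM, 2 for PGC and 4 for the label type in TE. That scaling moved the median of all genes from -0.22 to -0.11 in AM, -0.56 to -0.40 in PGC and -0.25 to -0.11 in VE/YE, and the median of the 50 genes from -0.02 to 0.09, -0.14 to 0.03 and -0.33 to -0.20. With no filter on low counts it was 1 for EPI and 1 for VE/YE with day, 1 for Gast, 0 for AM, 7 for EXMC, 3 for EXMC day 17, 14 for EPI day 16, and 3 and 4 for the label type in EXMC and TE. Without the replicate block it was 2 for Gast, 0 for AM, 1 for PGC, 12 for VE/YE and 6 for EXMC, UQCRH in PGC turned to 0.042 and NDUFA4L2 in TE to -1.33. With a family and EPI alone and the replicate block it was 0 for AM and 12 for VE/YE. With day 16 only it was 0 for AM, 4 for VE/YE, 0 for EXMC and 4 over all families, SDHD in VE/YE turned to 0.13, and NDUFB4 and UQCR11 in EXMC turned to -0.19 and -0.19. Without day 16 it was 2 for EXMC with day and 5 for day by family. With developmental labels only it was 4 for EPI with day, 0 for TE with day, 0 for EXMC day 17 and 5 for EPI day 16, and no such fit of EPI day 17 was possible. With the label type as a covariate it was 3 for EPI and 5 for TE with day. For each of these changes the cause was not tested.

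Leaving out 1 embryo at a time gave 5 to 9 for whole embryos, 0 to 1 for EPI, 4 to 8 for EXMC, 3 to 11 for TE and 0 to 3 for VE/YE with day, and 4 to 11 for day by family. It gave 23 to 33 over all families, 0 to 1 for Gast, 0 to 1 for AM, 0 to 2 for PGC, 17 to 24 for VE/YE, 9 to 11 for EXMC and 14 to 19 for TE against EPI. It gave 4 to 10 and 0 to 2 for EXMC day 16 and day 17, 5 to 11 and 1 to 14 for EPI day 16 and day 17, and 0 to 3, 0 to 4 and 0 to 4 for the label type in whole embryos, EXMC and TE. Where 1 sum remained in an arm, it was assumed to vary like the others. PGC, with 3 sums, and day 17, with 2 EPI sums, limit what could be detected.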

Other observations

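The 58 genes without a count in day 13 replicate 1 were found after the data were seen, among 5787 genes that reached 10 CPM in each of the 20 other embryos. Of them 43 could be placed in the order of protein-coding genes of RefSeq's assembly, and 16 had another of the 58 within 3 genes. NDUFS6, a zinc-binding subunit of complex I, was one of these, beside MRPL36 of the mitochondrial ribosome, which was also at 0. The median level in the other embryos was 667 CPM for NDUFA13, 591 CPM for NDUFS6 and 472 CPM for UQCR10.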
